A study of Chlamydomonas reinhardtii with 16 samples.

Results

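In *Chlamydomonas reinhardtii*, a single-celled green alga, 4 genes of the retinoblastoma-E2F pathway, which couples cell size to cell division, were followed over 1 day and 1 night. The genes are MAT3 (Cre06.g255450), E2F1 (Cre01.g052300), DP1 (Cre07.g323000) and CDKG1 (Cre06.g271100). They were chosen by locus, not by their measured levels, and all 4 were among the 17114 gene models measured. The files carry locus names alone, so the names of these 4 genes were taken as given with the loci. RNA was sequenced from 16 cultures of the laboratory strain dw15.1, with 2 cultures grown apart, called replicates A and B, for every one of 8 time points. Time is given as Zeitgeber Time (ZT), the hours since dawn, and sampling ran every 3 hr, beginning at ZT 0 and ending at ZT 21. All cultures were of 1 genotype and grew in Tris-acetate-phosphate medium, which supplies acetate as a carbon source, and all had been kept for 48 hr under alternating light and dark periods, 12 hr each, before sampling. The ZT 0 cultures were still in the dark and the ZT 12 cultures still in the light when taken. By their labels the groups differed in time of day. Sampling ran from ZT 0 to ZT 21 after those 48 hr, so time of day and culture age cannot be told apart. Cell size and division were not analysed here.

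Background on the pathway is as follows. *C. reinhardtii* grows in the light and divides around dusk and in the early night by multiple fission, in which a large mother cell goes through several rapid rounds of DNA replication and division. MAT3 is the retinoblastoma-related protein of the alga. It is encoded in the mating-type region, and cells without it divide too often and become small. E2F1 and DP1 are the subunits of the DNA-binding heterodimer to which MAT3 binds on chromatin. CDKG1 is a D-cyclin-dependent kinase that phosphorylates MAT3, and larger mother cells hold more CDKG1 protein and divide more often.

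Levels are FPKM (fragments relative to transcript length in kilobases and to the mapped fragments of the library), scaled here so that every library had the same 75th percentile over all gene models. FPKM are per length, so levels of different genes can be set side by side, but only roughly. Other differences between genes in how well their reads are made and mapped were not measured. The libraries held 5866513 to 21871265 fragments on gene models (median 14722212), the shallowest being replicate B at ZT 12, and replicates of a time point correlated at 0.994 to 0.997 across genes. Behind each single value of the 4 genes stood 161 to 2701 fragments, recovered from the deposited confidence limits, so that counting error alone was 1.92% to 7.88%. The RNA came from whole cultures, in which fewer cells using a gene and less of its RNA per cell cannot be told apart.

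All 4 genes had their highest level at ZT 9, in the last part of the light period, and all 4 were lower again at ZT 12. This held for both replicates. For CDKG1 the maximum depended on the scaling between libraries, with ZT 6 close behind. Its step from ZT 6 to ZT 9 was not called, and was -0.09 with libraries scaled to a common median. With the scaling used here, in each gene both ZT 9 libraries lay above all other 14 libraries (4 of 4 genes). The tests below cover 12153 genes, those averaging 1 FPKM or more, and 12.9% of them showed this, and 18.9% had their highest mean at ZT 9. From ZT 12 to ZT 15 MAT3 and E2F1 were called higher, calls that were lost with 1 library left out, and DP1 and CDKG1 were not called. From ZT 15 to ZT 18 none of the 4 was called, and all 4 were lower at ZT 21 than at ZT 18.

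**Figure D1:**
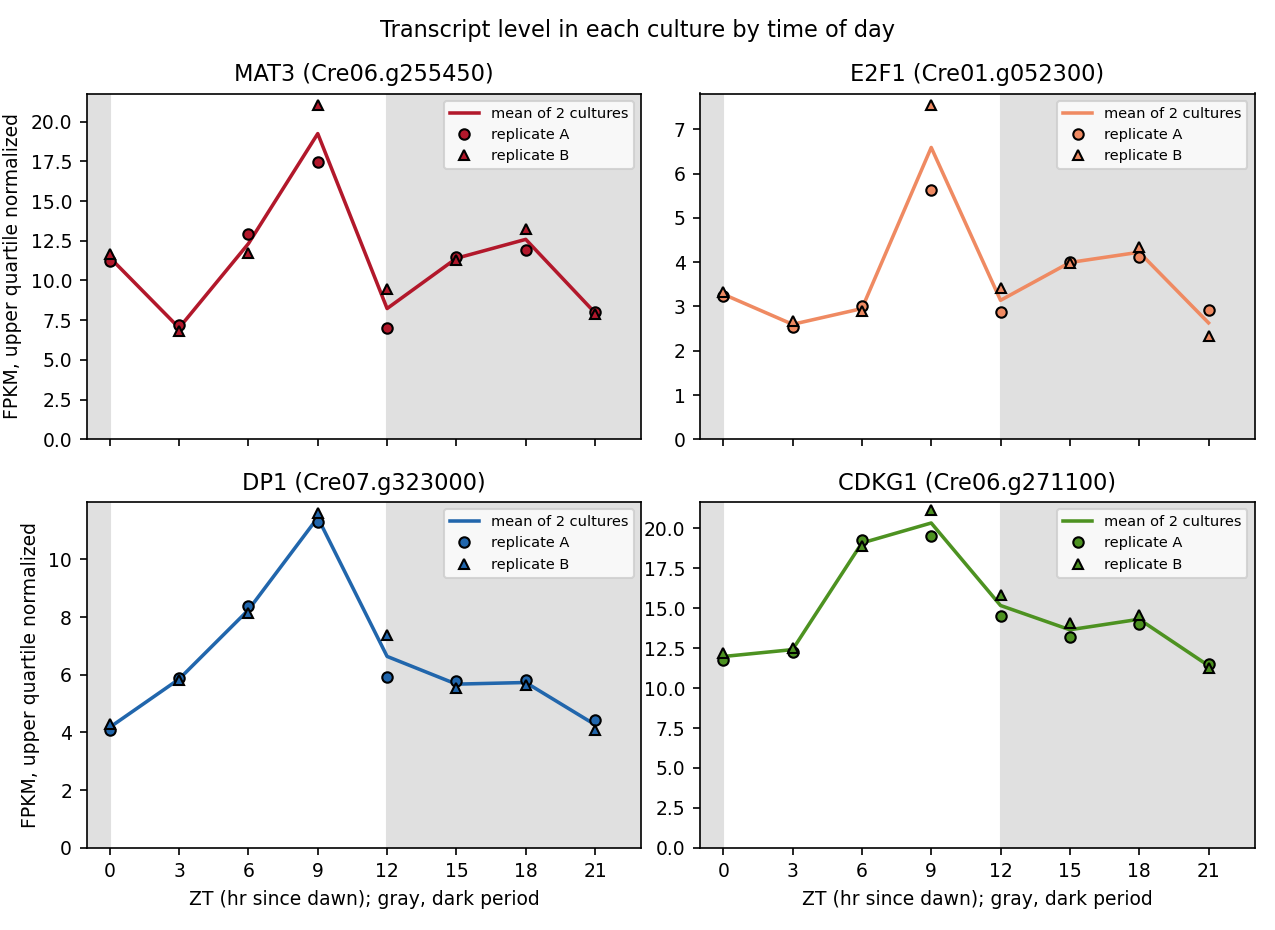
Level of each gene (vertical axis, upper quartile normalized FPKM) against ZT in hours since dawn (horizontal axis), with circles for replicate A, triangles for replicate B, a line through the means of the 2 cultures and gray for darkness. All 4 genes are highest at ZT 9, and at ZT 15 the means of MAT3 and E2F1 (11.4 and 3.99 FPKM) are above those at ZT 12 (8.23 and 3.14), while the means of DP1 and CDKG1 (5.68 and 13.7) are below (6.64 and 15.2).

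MAT3, the pathway's repressor, lies on chromosome 6 of genome version 4.3, positions 939396 to 945710. Its level in replicates A and B was 11.2 and 11.7 FPKM at ZT 0, 7.22 and 6.81 at ZT 3, 12.9 and 11.7 at ZT 6, and 17.4 and 21.1 at ZT 9. It was 7.03 and 9.43 FPKM at ZT 12, 11.5 and 11.3 at ZT 15, 11.9 and 13.3 at ZT 18, and 8.02 and 7.91 at ZT 21. With the scaling used here, MAT3 thus had 3 low points, at ZT 3, ZT 12 and ZT 21, a sharp maximum at ZT 9, and similar intermediate levels at ZT 0, 6, 15 and 18. As deposited, its mean at ZT 6 (12.3 FPKM) was near that at ZT 12 (11.3), below 15.3, 16.5 and 18.0 at ZT 0, 15 and 18. Its lowest point was ZT 12 in replicate A and ZT 3 in replicate B. The scaled mean was 19.2 ± 2.56 FPKM at ZT 9 (SD, n = 2 cultures here and below), 2.74-fold above the 7.01 ± 0.294 FPKM at ZT 3. With the time points ordered by level, 3 of the 7 neighboring pairs overlapped in their libraries, namely ZT 18 with ZT 6, ZT 0 with ZT 15, and ZT 12 with ZT 21.

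E2F1, the E2F-type subunit, lies on chromosome 1, positions 7231543 to 7236630, and had the lowest level of the 4 genes. In replicates A and B it was 3.22 and 3.33 FPKM at ZT 0, 2.53 and 2.67 at ZT 3, 3.00 and 2.90 at ZT 6, and 5.63 and 7.55 at ZT 9. It was 2.87 and 3.41 FPKM at ZT 12, 4.00 and 3.99 at ZT 15, 4.12 and 4.33 at ZT 18, and 2.93 and 2.33 at ZT 21. E2F1 stayed between 2.53 and 3.33 FPKM from ZT 0 to ZT 6, and at ZT 9, its highest point, the replicates also lay farthest apart (1.34-fold, with counting errors of 3.66% to 7.88% over its libraries). The mean of 6.59 ± 1.36 FPKM at ZT 9 was 2.54-fold above the 2.60 ± 0.0992 FPKM at ZT 3. The 5 lowest time points of E2F1, ZT 0, 12, 6, 21 and 3, formed an order in which every neighboring pair overlapped in its libraries.

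DP1, the partner of E2F1, lies on chromosome 7, positions 1449138 to 1453690. Its level in replicates A and B was 4.08 and 4.28 FPKM at ZT 0, 5.87 and 5.83 at ZT 3, 8.37 and 8.13 at ZT 6, and 11.3 and 11.6 at ZT 9. It was 5.91 and 7.36 FPKM at ZT 12, 5.80 and 5.55 at ZT 15, 5.81 and 5.66 at ZT 18, and 4.44 and 4.10 at ZT 21. DP1 was higher at each time point of the light period up to ZT 9 than at the one before it, with no overlap of libraries, and its means in the dark, 4.18 to 5.73 FPKM, were below the 6.64 FPKM at ZT 12. The mean of 11.4 ± 0.232 FPKM at ZT 9 was 2.74-fold above the 4.18 ± 0.138 FPKM at ZT 0. The pairs ZT 18 with ZT 15 and ZT 21 with ZT 0 overlapped.

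CDKG1, the kinase, lies on chromosome 6, positions 2762160 to 2766741, and had the highest level of the 4 genes. In replicates A and B it was 11.7 and 12.2 FPKM at ZT 0, 12.3 and 12.5 at ZT 3, 19.3 and 18.9 at ZT 6, and 19.5 and 21.2 at ZT 9. It was 14.5 and 15.8 FPKM at ZT 12, 13.2 and 14.1 at ZT 15, 14.0 and 14.6 at ZT 18, and 11.5 and 11.3 at ZT 21. CDKG1 was already high at ZT 6 and had the smallest daily range of the 4 genes, 1.78-fold between 20.3 ± 1.16 FPKM at ZT 9 and 11.4 ± 0.192 FPKM at ZT 21. ZT 12 overlapped with ZT 18, and ZT 18 with ZT 15.

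The daily ranges of these genes were not large for this alga. Of the genes tested, 58.3% had a larger ratio of highest to lowest mean than MAT3, 63.4% a larger one than E2F1, 58.4% a larger one than DP1, and 86.8% a larger one than CDKG1. By the mean over the day, CDKG1 lay at or above 83.6% of the genes tested, MAT3 79.2%, DP1 66.7% and E2F1 48.1%. Without the scaling between libraries, the ranges were 3.19-fold for MAT3, 2.95-fold for E2F1, 2.56-fold for DP1 and 1.90-fold for CDKG1, each still highest at ZT 9. With a common median, the step of CDKG1 from ZT 6 to ZT 9 was -0.09, so that its level was then higher at ZT 6.

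The 8 time points were first compared in a linear model of log2(FPKM + 1) across all genes tested (limma, moderated F-test). All 4 genes differed among time points, with Benjamini-Hochberg adjusted p-values of 2.49e-07 for MAT3, 1.92e-06 for E2F1, 9.34e-09 for DP1 and 1.05e-07 for CDKG1. The same test called 99.2% of the genes tested, so the count of 4 of 4 is near the background. Fold changes below are differences on the log2(FPKM + 1) scale, which understates changes of a gene as low as E2F1. The 2 samples of a time point came from separate cultures set up from a common preculture, and the p-values measure the spread between such cultures.

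Steps between neighboring time points located the changes, each tested in the same model and adjusted over all genes within the step. From ZT 0 to ZT 3, across dawn, MAT3 and DP1 moved in opposite directions. MAT3 fell by 0.64 (SE 0.11, limma adjusted p = 1.23e-04) and DP1 rose by 0.40 (SE 0.08, limma adjusted p = 5.06e-04), a step at which 71.4% of genes were called in either direction. The DP1 rise was 0.15 without the scaling between libraries, where the median of all genes moved by -0.24, and then no longer passed (adjusted p = 0.145). E2F1 differed by -0.25 (limma adjusted p = 0.0513, and under 0.05 in 8 of the 21 alternatives) and CDKG1 by 0.05 (limma adjusted p = 0.552, and -0.25 without the scaling).

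From ZT 3 to ZT 6, 3 of the 4 genes rose, against 33.7% of all genes tested that were called higher. MAT3 rose by 0.73 (SE 0.11), CDKG1 by 0.58 (SE 0.07) and DP1 by 0.43 (SE 0.08), with limma adjusted p-values of 2.89e-05, 2.35e-06 and 2.62e-04. E2F1 did not pass, with a difference of 0.14 (95% interval -0.10 to 0.37, limma adjusted p = 0.280).

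From ZT 6 to ZT 9 it was E2F1 that rose most, by 0.93 (SE 0.11, limma adjusted p = 2.87e-06), or 2.23-fold in mean FPKM. MAT3 rose by 0.60 and DP1 by 0.43 (limma adjusted p = 2.54e-04 and 3.67e-04), so that 3 of 4 genes were called higher, against 34.6% of all genes. CDKG1 had a difference of 0.09 (95% interval -0.06 to 0.23, limma adjusted p = 0.292), which was 0.39 without the scaling and -0.09 with a common median, settings that moved the median of all genes at this step by 0.24 and -0.14. CDKG1 was thus called higher over the earlier of these steps, E2F1 over the later one, and MAT3 and DP1 over both. Differences between the genes were tested through the ratios given further on, and not for each step.

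From ZT 9 to ZT 12, in the last hours of light, all 4 genes fell, against 42.8% of all genes called lower. MAT3 had 7.03 and 9.43 FPKM at ZT 12, against 17.4 and 21.1 at ZT 9, and fell by 1.14 (SE 0.11, limma adjusted p = 3.25e-07). E2F1 fell by 0.87, DP1 by 0.71 and CDKG1 by 0.40 (limma adjusted p = 4.72e-06, 2.19e-06 and 1.13e-04). The median over all genes at this step was -0.12. The 4 falls passed under every alternative tried, including each library left out in turn.

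From ZT 12 to ZT 15, into darkness, 2 of the 4 genes rose. MAT3 rose by 0.44 (SE 0.11, limma adjusted p = 0.00293) and E2F1 by 0.27 (SE 0.11, limma adjusted p = 0.0378), while 34.2% of all genes were called higher. DP1 and CDKG1 had differences of -0.19 and -0.14 and did not pass (limma adjusted p = 0.0587 and 0.0847), although both were called lower with a common median (adjusted p = 0.00472 and 0.00281) and without replicate A at ZT 12 (adjusted p = 0.00328 and 0.0492). The rise of MAT3 rested on replicate A at ZT 12, the lower of the 2 cultures there, and was 0.25 without it (limma adjusted p = 0.0609). The rise of E2F1 did not pass without that library (0.18, limma adjusted p = 0.244), without replicate A at ZT 15 (0.27, limma adjusted p = 0.111), without replicate B at ZT 15 (0.28, limma adjusted p = 0.0968), with a common median (0.16, limma adjusted p = 0.146) or without the filter on low levels (0.27, limma adjusted p = 0.0558).

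Within the night, 0 of the 4 genes passed from ZT 15 to ZT 18 in limma, and 0 of 4 had an unadjusted p under 0.05. Of all genes, 18.1% were called at this step in either direction. From ZT 18 to ZT 21 all 4 genes fell again, against 20.2% of all genes called lower. MAT3 fell by 0.60, E2F1 by 0.53, DP1 by 0.35 and CDKG1 by 0.30 (limma adjusted p = 4.72e-04, 0.00104, 0.00282 and 0.00237), and these falls too passed under every alternative tried. Sampling began at ZT 0, so the ZT 21 to ZT 0 step sets the first cultures taken against the last. At this step MAT3 alone passed, being higher at ZT 0, just before dawn, by 0.47 (SE 0.11, limma adjusted p = 0.00161). Of all genes, 33.0% were called higher. E2F1 had a difference of 0.24 (limma adjusted p = 0.0619, and under 0.05 in 4 of the 21 alternatives), DP1 of -0.02 and CDKG1 of 0.07.

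**Figure D2:**
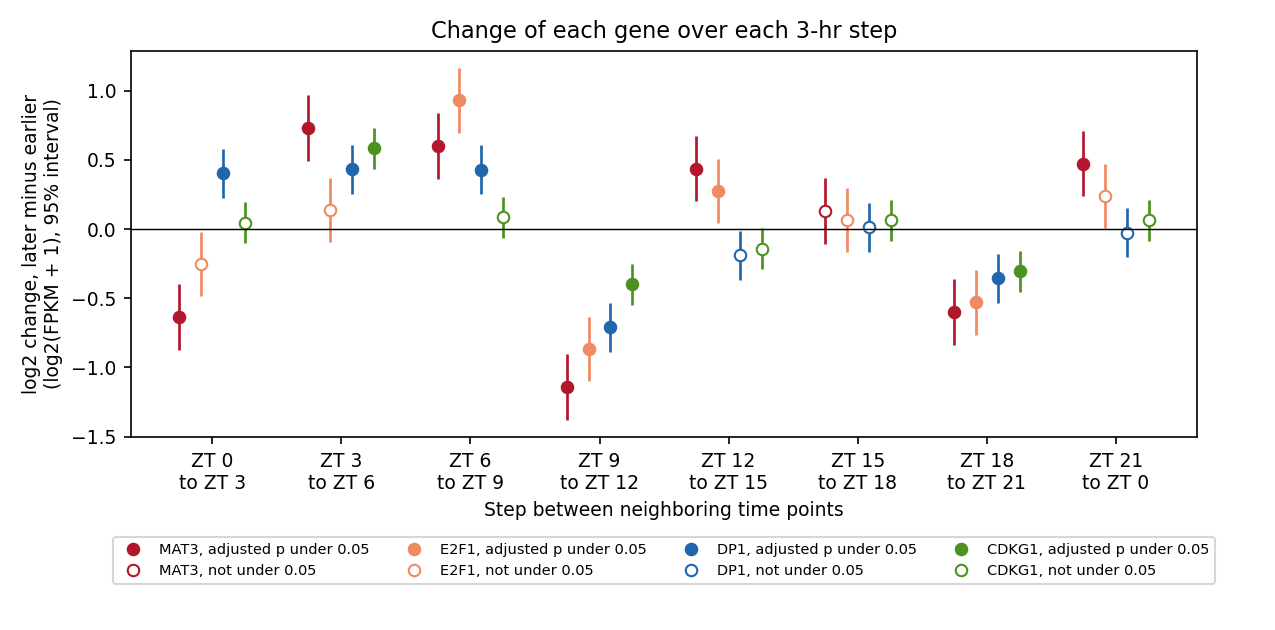
Change of each gene (vertical axis, log2(FPKM + 1), later minus earlier time point) at each of the 8 steps between neighboring time points (horizontal axis), with 95% intervals from limma, filled points for adjusted p under 0.05 and open points for the rest. The last step is ZT 0 minus ZT 21, which closes the day, although sampling began at ZT 0. All 4 genes fall from ZT 9 to ZT 12 and from ZT 18 to ZT 21, and CDKG1 differs by no more than 0.58 at any step.

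DP1 and CDKG1 passed a test for a smooth daily wave with 1 rise and 1 fall, and MAT3 and E2F1 did not. A 24-hr cosine wave fitted in limma had an amplitude (from the daily mean to the peak) of 0.49 for DP1 (SE 0.08, adjusted p = 8.91e-05), with a fitted peak at ZT 9.06. For CDKG1 it was 0.32 (SE 0.07, adjusted p = 0.00113), with a fitted peak at ZT 9.22. MAT3 (amplitude 0.23, SE 0.14, adjusted p = 0.314) and E2F1 (amplitude 0.26, SE 0.11, adjusted p = 0.0973) did not pass, so that 2 of 4 were called, against 82.4% of all genes tested. With the 8 libraries of replicate B alone, DP1 passed (amplitude 0.52, adjusted p = 0.0204) and CDKG1 did not (0.34, adjusted p = 0.104), and with those of replicate A alone neither passed (0.45 and 0.30, adjusted p = 0.0549 and 0.146). E2F1 passed without the scaling (adjusted p = 0.0353) and without replicate A at ZT 12 (adjusted p = 0.0304). The wave accounted for 77.2% of the variance of DP1 and 70.5% of that of CDKG1, and for 28.4% of that of E2F1 and 15.1% of that of MAT3. With a 12-hr wave added, a fit chosen after seeing the data, these shares were 91.5%, 91.4%, 39.4% and 37.1%. Most of the variance of MAT3 and E2F1 was thus outside both smooth waves.

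The cyclic score, a measure from the power spectrum with the replicates read as 2 consecutive days, gave the same calls. DP1 and CDKG1 scored 1.0 on a scale of 0 to 1 (p = 0.0188 each by permutation of the values, the smallest p this score can give). Genes were called at p under 0.02, here a score of 0.995; the score and its random orders were rebuilt from their description, and the limit on the score is not that of the study. MAT3 scored 0.338 (p = 0.601 by permutation) and E2F1 0.308 (p = 0.639 by permutation). Again 2 of 4 genes passed, and 72.5% of the genes tested did. Since a score of 1.0 is the highest possible, the 24-hr component was the strongest component of DP1 and CDKG1 in every window of the spectrum.

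The window around division was compared with the morning, that is ZT 12 and 15 with ZT 3 and 6. The 4 genes differed little here. E2F1 averaged 3.57 ± 0.539 FPKM at ZT 12 and 15 and 2.77 ± 0.217 FPKM at ZT 3 and 6 (SD, n = 4 each), and rose by 0.27 (SE 0.08, limma adjusted p = 0.00471), a rise that passed under every alternative tried. DP1 averaged 6.16 ± 0.819 FPKM at ZT 12 and 15 and 7.05 ± 1.39 FPKM at ZT 3 and 6, and fell by 0.16 (SE 0.06, limma adjusted p = 0.0202), but was higher by 0.23 (adjusted p = 0.00309) without the scaling between libraries. The call of DP1 was also lost without replicate A at ZT 6 (adjusted p = 0.0528), replicate A at ZT 12 (adjusted p = 0.120) or replicate B at ZT 15 (adjusted p = 0.0570).

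MAT3 averaged 9.82 ± 2.08 FPKM at ZT 12 and 15 and 9.67 ± 3.11 FPKM at ZT 3 and 6 and did not pass (difference 0.05, 95% interval -0.12 to 0.21, limma adjusted p = 0.602), nor did CDKG1 (14.4 ± 1.08 FPKM at ZT 12 and 15 and 15.7 ± 3.86 FPKM at ZT 3 and 6, difference -0.09, limma adjusted p = 0.0911). In all, 2 of 4 genes were called in either direction, against 82.1% of all genes tested. Without the scaling all 4 were called higher, MAT3 by 0.46 and CDKG1 by 0.33, while the median of all genes moved by 0.34 on the log2 scale and the share of calls that were higher was 71.7%, against 46.7% with the scaling. With a common median the difference of MAT3 was -0.06, and it was -0.05 without replicate B at ZT 12. CDKG1 was called lower with a common median (-0.20, adjusted p = 0.00123) and without that library (-0.12, adjusted p = 0.0479).

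Darkness and light were compared over all cultures, ZT 15, 18, 21 and 0 against ZT 3, 6, 9 and 12. DP1 ranged from 4.08 to 5.81 FPKM in the dark (median 5.0) and from 5.83 to 11.6 FPKM in the light (median 7.75). The 8 dark and the 8 light libraries did not overlap, but by a narrow gap that rested on the scaling between libraries. As deposited, replicates A and B at ZT 15 had 8.36 and 8.08 FPKM, above 6.32 and 6.22 at ZT 3. The share of all genes tested without such overlap was not computed. DP1 fell by 0.57 in the dark (SE 0.04, limma adjusted p = 3.84e-09). CDKG1 ranged from 11.3 to 14.6 FPKM in the dark (median 12.7) and from 12.3 to 21.2 FPKM in the light (median 17.4), and fell by 0.34 (SE 0.03, limma adjusted p = 2.18e-07). These 2 of 4 genes were called lower, as were 44.5% of all genes tested, and both falls passed under every alternative tried.

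MAT3 had a median of 11.4 FPKM in the dark and 10.6 FPKM in the light and a difference of -0.02 (limma adjusted p = 0.780), and E2F1 a median of 3.66 FPKM in the dark and 2.95 FPKM in the light and a difference of -0.03 (limma adjusted p = 0.582). The medians of both genes were higher in the dark, while their fitted differences were just below 0, and neither sign was stable. Without the scaling between libraries MAT3 was higher in the dark by 0.22 and E2F1 by 0.17 (adjusted p = 0.00279 and 0.0175), with the median of all genes moved by 0.19 and 66.1% of calls higher, against 47.1% with the scaling. Without replicate B at ZT 9 the differences were 0.02 and 0.01.

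Ratios of these genes within a library do not depend on the scaling between libraries. The order CDKG1, MAT3, DP1, E2F1 from high to low held in all 16 libraries, although the ratio of CDKG1 to MAT3 was as low as 1.005 in replicate B at ZT 9. All 6 ratios differed among time points, in a permutation test of the F statistic with 100000 random orders of the 16 libraries, with Benjamini-Hochberg adjusted p-values over the 6 pairs of 1.8e-04 to 0.00651.

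The ratio of E2F1 to DP1, the subunits of 1 heterodimer, varied 2.19-fold. In replicates A and B it was 0.790 and 0.778 at ZT 0, 0.430 and 0.457 at ZT 3, 0.358 and 0.357 at ZT 6, and 0.499 and 0.650 at ZT 9. It was 0.486 and 0.462 at ZT 12, 0.690 and 0.718 at ZT 15, 0.709 and 0.766 at ZT 18, and 0.659 and 0.569 at ZT 21. All 8 libraries taken in the dark lay between 0.569 and 0.790, and of the light libraries only replicate B at ZT 9 reached that range. The adjusted p of this ratio was 7.35e-04 by permutation. DP1 had a higher FPKM than E2F1 in all 16 libraries, which is not a count of molecules.

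The ratio of MAT3 to DP1 was 2.74 ± 0.0116 at ZT 0, its highest point, and 1.20 ± 0.0438 at ZT 3, its lowest (adjusted p = 1.8e-04 by permutation). The ratio of MAT3 to E2F1 varied least of the 6, 1.60-fold, between 4.17 ± 0.195 at ZT 6 and 2.61 ± 0.227 at ZT 12 (adjusted p = 0.00651 by permutation). Both ZT 6 libraries lay above all others.

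The ratio of CDKG1 to MAT3, the kinase over its substrate, was 1.87 ± 0.276 at ZT 12 and 1.77 ± 0.0986 at ZT 3, and 1.05 ± 0.00162 at ZT 0 and 1.06 ± 0.0815 at ZT 9 (adjusted p = 6.6e-04 by permutation). It was 1.55 ± 0.0862 at ZT 6 and 1.43 ± 0.00992 at ZT 21. At ZT 21, another low point of MAT3, it thus lay below its value at ZT 6. The ratio was near 1 at ZT 9, when both transcripts were highest with the scaling used here. CDKG1 to E2F1 was 3.13 ± 0.469 at ZT 9, its lowest point, against 6.47 ± 0.0563 at ZT 6, its highest (adjusted p = 6.6e-04 by permutation). CDKG1 to DP1 was 2.87 ± 0.0166 at ZT 0 and 1.78 ± 0.0650 at ZT 9 (adjusted p = 9e-04 by permutation).

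**Figure D3:**
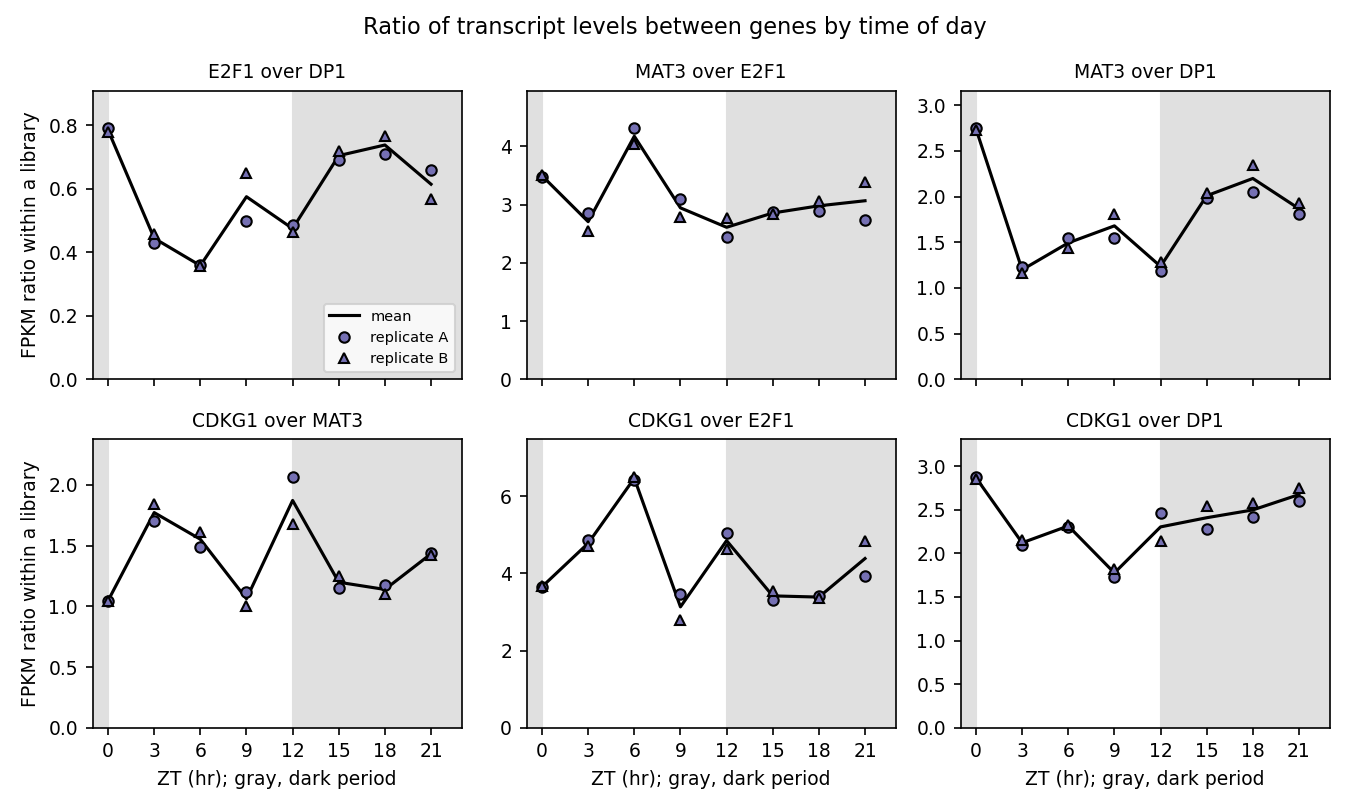
Ratio of the FPKM of each pair of genes within each library (vertical axes, starting at 0) against ZT in hours (horizontal axis), with circles for replicate A, triangles for replicate B, a line through the means and gray for darkness. E2F1 over DP1 is 0.569 to 0.790 in all dark libraries and lowest at ZT 6, and CDKG1 over MAT3 is near 1 at ZT 0 and ZT 9.

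By likeness of profile MAT3 went with E2F1 and DP1 with CDKG1. Likeness is given as Pearson's r of log2(FPKM + 1) over the 16 libraries and as a description, since the libraries of 1 time point share it. MAT3 and E2F1 correlated at 0.878, and DP1 and CDKG1 at 0.945. E2F1 was 13th among 12152 other genes by its likeness to MAT3, and MAT3 17th by its likeness to E2F1. CDKG1 was 26th by its likeness to DP1, and DP1 17th by its likeness to CDKG1. The 4 correlations between the pairs ranged from 0.614 to 0.715, and 3.39% to 19.8% of all genes were more alike to the gene in question.

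The genes most alike are known here by locus only. For MAT3 they were Cre14.g625800 (r = 0.961) and Cre03.g202750 (r = 0.914), and for E2F1 Cre13.g575150 (r = 0.952) and Cre11.g480900 (r = 0.934). For DP1 they were Cre05.g231141 (r = 0.982) and Cre02.g092350 (r = 0.977), and for CDKG1 Cre12.g556250 (r = 0.964) and Cre04.g214500 (r = 0.963). Of these 8 genes all but Cre04.g214500, which was highest at ZT 6, had their highest mean at ZT 9, as did 18.9% of all genes tested. They were picked for likeness to genes highest at ZT 9, so their own highest points were largely set by the choice. Nothing is said by likeness of a shared function.

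The replicates differed in the same direction in all 4 genes at 5 of the 8 time points. The share of all genes tested that differed in these directions was not computed, and the 4 genes correlate with each other. All 4 genes were higher in replicate B at ZT 0 (by 1.03-fold to 1.05-fold), ZT 9 and ZT 12 (by up to 1.34-fold at each), and all 4 were lower in replicate B at ZT 6 and ZT 21. At ZT 6 the deposited files carry other replicate letters (B and C) than the sample titles (A and B), and the titles were followed, so which ZT 6 culture is A is uncertain. Replicates A and B of each time point were sequenced in different lanes, so that culture and lane cannot be told apart. The median over all genes tested differed between the replicates by no more than 0.03 on the log2 scale at any time point. At ZT 9 the rise over ZT 6 was seen in both replicates of MAT3, E2F1 and DP1.

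Other genes were taken by protein domain from the domain trees of the study. They were the protein kinases that share CDKG1's subtree, the cyclins, which activate cyclin-dependent kinases, and family B DNA polymerases, which copy DNA. The lists rest on the domain alone, and whether each gene acts in the cell cycle was not tested. The genes named from each list below were picked as its largest called changes between the morning and ZT 12 and 15. That they changed more than any of the 4 genes is thus no test of the lists. Of 50 other kinases of CDKG1's tree, 38 were tested, and 19 were higher and 13 lower at ZT 12 and 15 than at ZT 3 and 6, with 6 not called and a median change of 0.11. Of all genes tested, 38.4% were called higher and 43.7% lower. This split was 26 higher and 10 lower of 39 tested without the scaling between libraries, and 14 higher and 16 lower of 38 with a common median. The largest was Cre08.g372550, with 64.4 to 97.3 FPKM at ZT 12 and 15, against 0.299 to 0.547 FPKM at ZT 3 and 6. It rose by 5.84 (limma adjusted p = 2.47e-16). This gene was under 1 FPKM in the morning and passed the filter on low levels through its later levels, so that its direction was tied to the filter. Cre13.g607300 rose by 2.03, and Cre04.g223200 fell by 1.73. These changes, and those of the genes named next, kept their direction and their call under each of the 21 alternatives.

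All 17 cyclins were tested, of which 7 were higher, 7 lower and 3 not called, with a median of 0.10 (10 higher and 4 lower without the scaling), beside the 38.4% higher and 43.7% lower of all genes. Of these cyclins 6 had their highest mean at ZT 9, as did 18.9% of all genes tested. Cre03.g207900 averaged 68.7 FPKM at ZT 12 and 15 and 0.288 FPKM at ZT 3 and 6 and rose by 5.73. It too passed the filter on low levels through its later levels, so that its direction was tied to the filter. Cre08.g370400 rose by 3.36, and Cre17.g711550, which was highest at ZT 9, fell by 1.67. Which of these cyclins partner CDKG1 is not given in the sources used here.

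Of 4 family B DNA polymerases 2 passed the filter on low levels. Cre01.g015250 had 4.72 to 7.03 FPKM at ZT 12 and 15, against 0.207 to 0.821 FPKM at ZT 3 and 6, a change of 2.18. Cre04.g214350 had 2.01 to 3.52 FPKM at ZT 12 and 15, against 0.0411 to 0.123 FPKM at ZT 3 and 6, a change of 1.80. With a pseudocount of 0.1 FPKM in place of 1 FPKM these changes were 3.44 and 4.04. Both genes were under 1 FPKM in the morning and passed the filter through their later levels, so that their direction was tied to the filter. Without the filter 2 of the 4 were higher and 1 was lower. The median change over all genes tested was -0.04, so the medians of the kinases and cyclins lay close to it. The 4 size control genes, with changes of -0.16 to 0.27, lay inside the middle 50% of all genes, between -0.46 and 0.41.

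**Figure D4:**
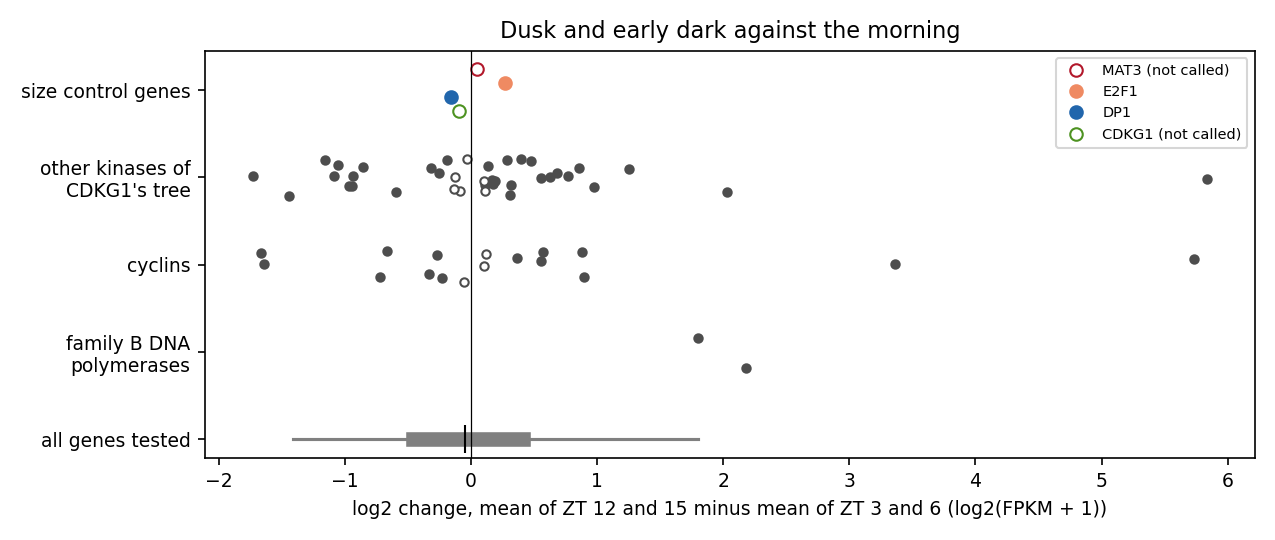
Change between dusk and early dark (ZT 12 and 15) and the morning (ZT 3 and 6) on the log2(FPKM + 1) scale (horizontal axis) for the 4 size control genes, the other kinases of CDKG1's tree, cyclins, family B DNA polymerases and all genes tested, with filled points for adjusted p under 0.05. For all genes the thick bar holds the middle 50%, the thin line the 5th to the 95th percentile and the tick the median of -0.04. The 4 genes lie inside the thick bar. The largest changes among kinases and cyclins are 5.84 and 5.73, both of genes that passed the filter on low levels through their later levels.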

How the data were processed

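Cultures, time points and replicates were taken from the sample labels. For ZT 6 the titles give the replicate letters A and B and the files B and C, and the titles were used. Per the methods, libraries were made with a stranded kit, 8 were run to a lane, and the replicates of each time point were in different lanes, with the lane of each library not given. TopHat was used by the authors for mapping, against genome version 4.3, and Cufflinks for the FPKM of each gene model. The deposited FPKM are not scaled between libraries. Versions of both programs, and whether strand was used in counting, are not given in the sources used here. No model overlapped those of the 4 genes. A further deposited table of 50 genes, with 16 columns of values, was not used.

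Each library was multiplied by 1 factor (0.687 to 1.01) that set its 75th percentile equal to the ZT 6 replicate B library, the scaling named in the study's methods. Fragments were recovered from the upper confidence limits, which lie 2 times FPKM over the root of the fragment number above the value. For values under 300 fragments, 100% were within 0.05 of a whole number in every library. They cover counting error only.

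Models were fitted with limma 3.58.1 (R 4.3.3) to log2(FPKM + 1) with an intensity trend, over the 12153 genes averaging 1 FPKM or more, and p-values were adjusted by Benjamini-Hochberg at 0.05. A factor of 8 time points shared 1 estimate of the spread. The cyclic score averaged 9 windows of 8 values, with p from 10 random orders of each gene pooled. Scripts in Python 3.11.15 (numpy 2.4.6, pandas 2.3.3, scipy 1.17.1, matplotlib 3.10.9) were tested on simulated data. Named genes were the 4 genes, the 2 most alike to each, and the 3 largest called changes of each list. The members and lists were chosen with earlier results of these data known. Alternatives were the FPKM as deposited, a common median, a pseudocount of 0.1, no filter, a replicate term, and leaving out each library or replicate. The reference held locus names only, so no sequences were analysed here, and the planned search of promoters and proteins was not run.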

Additional observations from a re-analysis of the deposited data

How the results depend on the processing

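The difference among time points of all 4 genes, their falls from ZT 9 to ZT 12 and from ZT 18 to ZT 21, the rise of E2F1 at ZT 12 and 15 over ZT 3 and 6, the lower levels of DP1 and CDKG1 in the dark, and all 6 ratios passed under every alternative run on them. With the FPKM as deposited, 4 of the 4 genes were called both at ZT 12 and 15 against ZT 3 and 6 (DP1 reversed to 0.23 and CDKG1 to 0.33) and in dark against light (MAT3 reversed to 0.22 and E2F1 to 0.17). CDKG1 reversed to -0.25 from ZT 0 to ZT 3, and DP1 to -0.0056 from ZT 15 to ZT 18. This setting moved the median of all genes by 0.34, 0.19, -0.24 (ZT 0 to 3), 0.24 (ZT 6 to 9) and 0.10 (ZT 9 to 12), and the share of calls that were higher to 27.4% against 45.7% with the scaling at ZT 0 to 3, 77.6% against 54.6% at ZT 6 to 9, and 39.9% against 55.3% at ZT 18 to 21. With a common median, MAT3 reversed to -0.060 at ZT 12 and 15 against ZT 3 and 6 and CDKG1 to -0.094 from ZT 6 to ZT 9, where the median of all genes moved by -0.14 and the share of higher calls was 38.2%. From ZT 12 to ZT 15 the median moved by -0.10 (share 41.2% against 51.7%). From ZT 21 to ZT 0 it called 2 genes instead of 1. Without the filter 1 gene was called from ZT 12 to ZT 15. Among cyclins 4 were lower with the FPKM as deposited, against 7, and without the filter 1 family B DNA polymerase was lower, against 0. The cause of these changes was not tested. With single libraries left out, 1 to 3 genes were called at ZT 12 and 15 against ZT 3 and 6, 1 to 2 from ZT 12 to ZT 15, and 1 to 2 from ZT 21 to ZT 0. MAT3 ranged from -0.049 to 0.14 at ZT 12 and 15 against ZT 3 and 6 and from -0.064 to 0.030 in dark against light, E2F1 from -0.079 to 0.013 in dark against light, and DP1 from -0.014 to 0.039 from ZT 15 to ZT 18 and from -0.071 to 0.022 from ZT 21 to ZT 0. With 1 replicate alone (8 libraries), the 24-hr wave called 1 gene without replicate A and 0 without replicate B by limma, where the adjusted p of DP1 was 0.0549 and that of CDKG1 0.146, and 5492 and 5788 genes in all instead of 10008. From ZT 15 to ZT 18, 2205 genes were called over all genes, and 1078 to 1326 without replicate B at ZT 15 or either ZT 18 library. Deviations of same-lettered libraries correlated at -0.27 to 0.33, over 0.1 in 10 of 28 pairs, and whether the replicate letters pair the samples was not tested. A replicate block changed no call of the 4 genes, with 12051 genes differing among time points. The depth of the shallowest library, replicate B at ZT 12, leaves E2F1 at its least certain, with the 161 fragments behind a counting error of 7.88%.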

Other observations

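The gene models next to the 4 genes on the genome were looked at because levels of close neighbors could be confused in counting. The gene models on both sides of each gene are given. Before MAT3, at 168 bases, lay Cre06.g255400, with a mean of 9.80 FPKM and an r of 0.33 with MAT3 over the 16 libraries, and 2 bases after it Cre06.g255500, with 3.17 FPKM and an r of -0.39. The neighbors of E2F1 were Cre01.g052250, 223 bases before it (23.5 FPKM, r of -0.67), and Cre01.g052350, 683 bases after it (11.4 FPKM, r of 0.57). Those of DP1 were Cre07.g322950, 487 bases before it (7.16 FPKM, r of 0.08), and Cre07.g323050, 46 bases after it (12.2 FPKM, r of -0.75). Those of CDKG1 were Cre06.g271050, 103 bases before it (2.33 FPKM, r of 0.08), and Cre06.g271150, 266 bases after it (3.19 FPKM, r of -0.79). These neighbors were picked for their place and not for their values, and r is a description of libraries that share time points. The share of reads that a neighbor could add to a gene was not tested.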
